A study of Homo sapiens with 24 samples.

Results

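The genes described here encode the proteasome, its regulatory caps and its assembly factors. Members were all probes of the array, control spots apart, whose gene name began with PSMA, PSMB, PSMC, PSMD, PSME, PSMF or PSMG followed by a digit. The rule found 49 of the array's 27274 gene names, on 66 of its 34127 probes. Of these names 48 were subunits or dedicated assembly factors, and the other, PSMC3IP, encodes a meiotic recombination protein that is not a subunit and is given apart.

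The samples were 24 cultures of HCT-116, a human colon cancer cell line, from 1 clone stably transfected with a Tet repressor and a doxycycline-inducible dominant negative Tcf4 (DN-Tcf4), a form of the Wnt pathway's DNA-binding partner that cannot bind beta-catenin. All 4 groups carried both constructs, and each held 6 cultures numbered by experiment. Control cultures (Ctl) received neither agent, NaB cultures received 5 mM sodium butyrate, Doxy cultures received 4 μg/ml doxycycline, and DoxyNaB cultures received both agents, with RNA taken after 17.5 hr. The design asked how butyrate, a histone deacetylase inhibitor made by fermentation of dietary fiber, changes gene expression when Wnt signaling is intact (NaB/Ctl) and when it is repressed by DN-Tcf4 (DoxyNaB/Doxy). Because every culture came from 1 clone, the experiments measure the spread between cultures of that clone.

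The proteasome degrades proteins tagged with ubiquitin. Its core is a barrel of stacked rings in which outer alpha subunits gate entry and inner beta subunits cut the substrate at 3 kinds of active site. A regulatory cap with a ring of ATPases recognises, unfolds and feeds the substrate, and other caps open the gate without ATP. In leukocytes, and in other cells after interferon gamma, the constitutive catalytic subunits PSMB5, PSMB6 and PSMB7 can be replaced by the inducible subunits PSMB8, PSMB9 and PSMB10, which gives the immunoproteasome and alters the peptides offered to MHC class I.

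The catalytic subunits carry the main contrast, so the sequences their signals came from are shown here. Each is a probe of 60 bases with its position in NCBI36 as the array files give it. A span longer than the probe crosses an intron. The probes of the 3 constitutive subunits and of PSMB8 and PSMB9 read as follows.
PSMB5, chr14:22565325-22565384, minus strand: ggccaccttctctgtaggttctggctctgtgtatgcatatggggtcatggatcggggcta
PSMB6, chr17:4648362-4648547, plus strand: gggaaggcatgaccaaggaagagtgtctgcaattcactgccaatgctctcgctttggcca
PSMB7, chr9:126155712-126155771, minus strand: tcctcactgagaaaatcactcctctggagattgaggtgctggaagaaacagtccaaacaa
PSMB8, chr6:32918001-32918468, minus strand: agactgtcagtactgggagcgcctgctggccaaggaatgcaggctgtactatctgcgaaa
PSMB9, chr6:32931896-32931955, plus strand: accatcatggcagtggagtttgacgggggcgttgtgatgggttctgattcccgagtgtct

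All values are levels on the log2 scale, in which 0 is the 75th percentile of the signals of the same array, and changes are differences of such levels. A level of 1 probe cannot be set against that of another probe, so changes are compared between genes and levels are not. A probe was tested where its signal was well above the local background on every usable array of 1 or more treatments, and a change was called at an adjusted p under 0.01 (limma with the experiment as a block, Benjamini-Hochberg over all 18984 tested probes). Of the 66 probes 61 were tested, which covered 46 of the 48 subunit genes and PSMC3IP. The untested genes were PSMA8, a testis form of an alpha subunit detected above background on 1 Ctl array and on 3 arrays of each other treatment, and PSMB11, the thymus form of the catalytic subunit, whose 2 probes never exceeded 3 of 6. Where a gene had several tested probes, the one of highest mean level stands for it. Of the 46 genes 45 were well above background on every usable array, and the other, PSMB8, entered the test only through its signal with butyrate, so its changes are given as values without a p.

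The 75th percentile of the arrays ranged from 380.2 to 1323 signal units, between 52.5% and 88.1% of spots were well above background, and no more than 3 spots of an array were saturated. Negative control spots had net signals of 48.4 to 115 except in NaB of experiment 3 (161) and DoxyNaB of experiment 2 (248.9). In experiment 1 the Ctl and Doxy arrays lay on 1 slide and the NaB and DoxyNaB arrays on another, scanned on a different day. Slide, scan day and butyrate cannot be told apart in that experiment. Experiments 2 to 6 each held all 4 treatments on 1 slide. Experiments 2 to 4 shared 1 scan day and experiments 5 and 6 shared another. Spots well above background made up 78.3% to 88.1% in experiments 2 to 4, against 52.5% to 62.4% in experiments 1, 5 and 6. The part of the scan day in this was not tested. Of 7 markers of colon epithelium 6 were tested, among them the keratins KRT8 and KRT18, and VIL1 was not. AXIN2, a target of Wnt signaling, was 2.53 lower in DoxyNaB than in NaB (adjusted p = 2.6e-11), and the 3 tested probes of TCF7L2, the gene of Tcf4, differed by 4.46, 2.96 and -1.25 in the same comparison. In Doxy/Ctl the same TCF7L2 probes stood at 0.30, -0.17 and 0.36, none called, and AXIN2 at -0.58 (adjusted p = 0.0029). The study reports minimal DN-Tcf4 protein with doxycycline alone and high levels with both agents.

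Butyrate lowered more proteasome genes than it raised, with and without doxycycline. In NaB/Ctl 24 of the 46 tested genes fell, 4 rose and 18 were not called. The rises in both comparisons count PSMB8, which entered the test only through its butyrate arrays. With probes required well above background on all 24 arrays, PSMB8 dropped out. Then 3 genes rose in NaB/Ctl and 5 in DoxyNaB/Doxy, and the falls stayed at 24 and 23. The shares of all gene names that follow belong to the main filter and not to that stricter one. Over all 15155 tested gene names 69.6% were called in NaB/Ctl, 29% as lower and 40.6% as higher, so the 52.2% of proteasome genes that fell stand beside a background of 29%. The median change was -0.33 over the proteasome genes, with a range from -1.69 to 2.40, and 0.17 over all gene names. In DoxyNaB/Doxy 23 genes fell, 6 rose and 17 were not called, beside a background of 68.4% called, 30.3% as lower and 38.1% as higher, and the medians were -0.28 over the proteasome genes and 0.11 over all gene names.

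Most of the changes were small. Only 4 genes fell by more than 2-fold in NaB/Ctl (PSMB10, PSMB5, PSMG1 and PSMA1) and 2 rose by more than 2-fold (PSMB9 and, from signals near background, PSMB8), where 11.5% of all gene names fell and 21% rose by that much. In DoxyNaB/Doxy the 2-fold falls were PSMB10, PSMB5 and PSMG1 and the 2-fold rises again PSMB8 and PSMB9, beside 12.5% and 18.7%. The same 23 genes fell in both comparisons, PSMB9, PSMD2 and PSMD3 rose in both, and PSMB8 was higher in both by value. PSMD9 passed as lower in NaB/Ctl alone, PSMD6 and PSME4 as higher in DoxyNaB/Doxy alone, and the other 16 passed in neither.

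The distance between the proteasome genes and the rest of the array depended on the scaling. The proteasome median was 0.50 below that of all tested probes in NaB/Ctl and 0.39 below in DoxyNaB/Doxy as scaled here, and 0.53 and 0.39 below with arrays scaled to their median, but 0.29 and 0.58 below with normexp and only 0.05 and 0.02 below after quantile normalization. Median scaling shifts all probes of an array alike, apart from a floor on low signals, and so is no separate check of these gaps. Scaling to the median also moved the whole array, with a median change over all probes of -0.58 in NaB/Ctl in place of 0.17, and 38 proteasome genes were then called lower and 2 higher, beside 46.1% and 13% of all gene names under that scaling. The sign of a small change therefore depended on the scaling, and 8 of the 10 proteasome genes above 0 in NaB/Ctl and 7 of 11 in DoxyNaB/Doxy were below 0 with arrays scaled to the median.

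**Figure D1:**
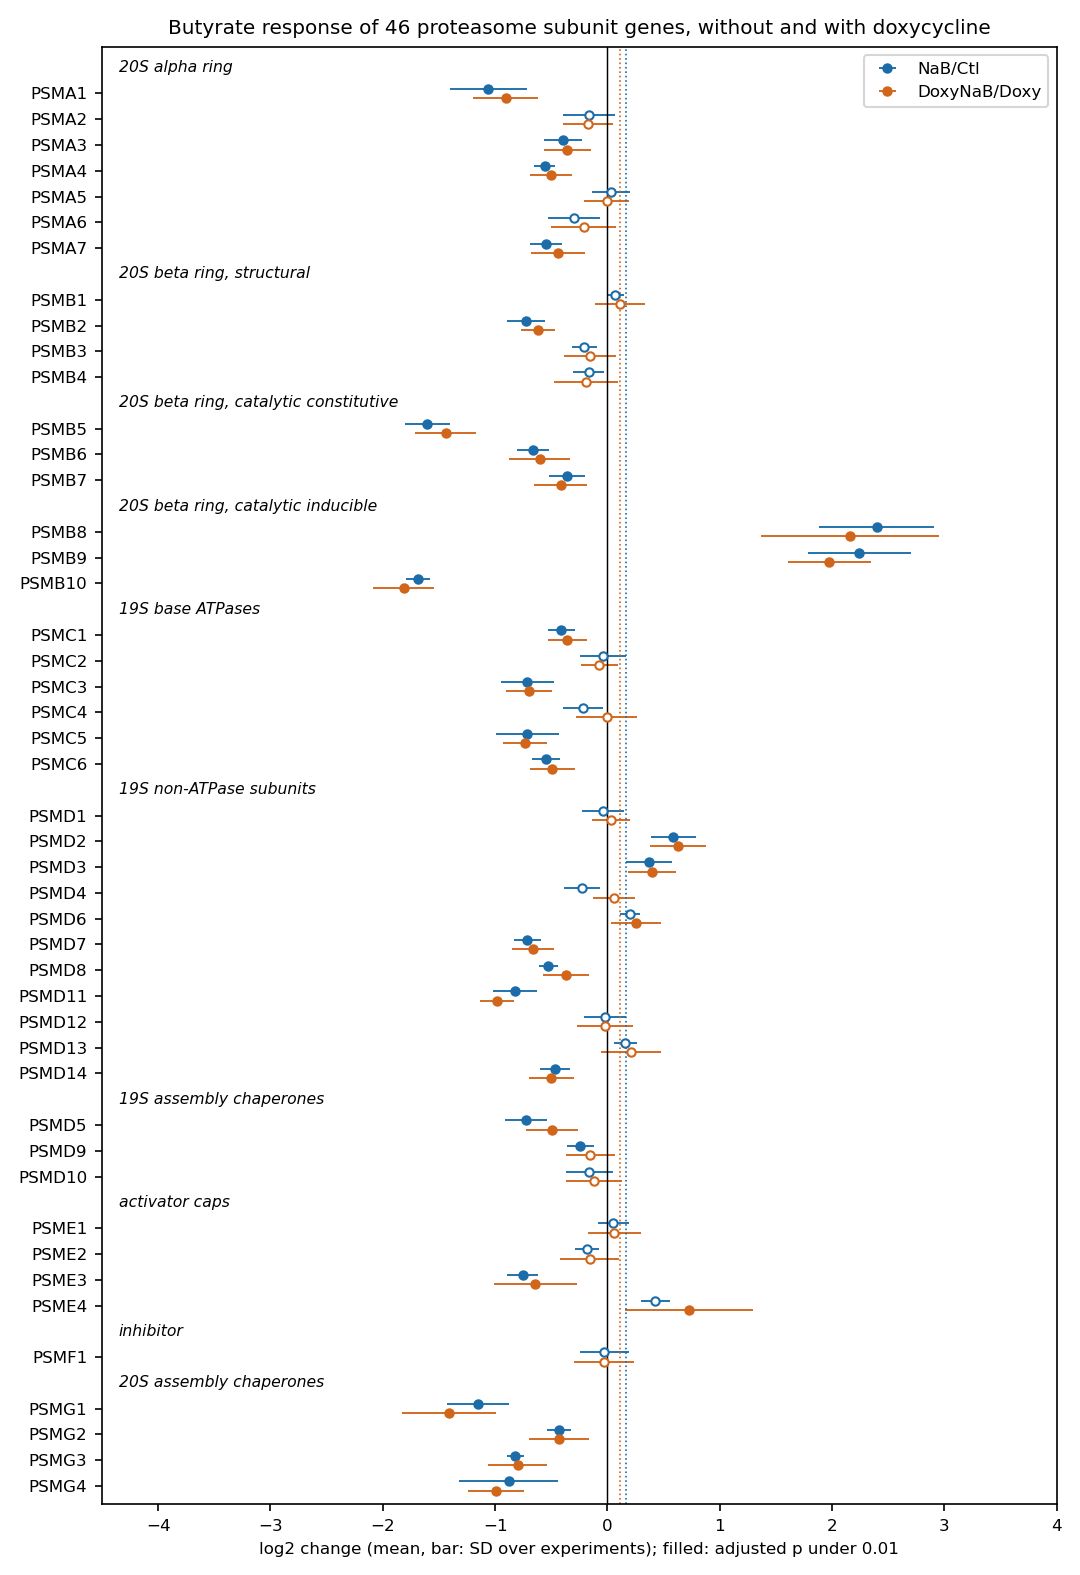
Log2 change of each of the 46 tested proteasome genes in NaB/Ctl (blue) and DoxyNaB/Doxy (orange), grouped by role, with 20S naming the core and 19S the ATPase cap. Points are means and bars SDs over experiments, filled points passed at an adjusted p under 0.01, and dotted lines mark the median of all gene names (0.17 and 0.11). PSMB8 and PSMB9 stand on the right of all others and PSMB10 and PSMB5 on the left. The points of PSMB8 are values only, since it entered the test through its butyrate arrays. PSMD2 and PSMD3, to the right of 0 here, stand at -0.24 and -0.38 in NaB/Ctl with arrays scaled to the median, which moves the median of all tested probes from 0.17 to -0.58.

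**Figure D2:**
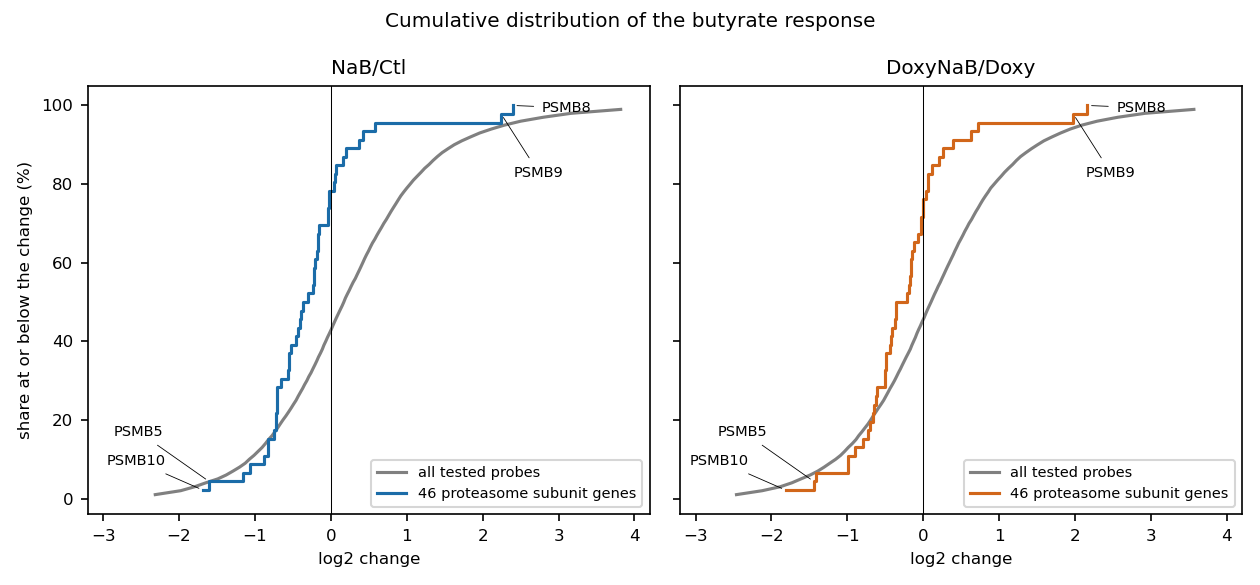
Cumulative share (%) of genes at or below a given log2 change, for the 46 proteasome genes (coloured steps) and for all tested probes (grey), in NaB/Ctl on the left and DoxyNaB/Doxy on the right. The proteasome curve lies above the grey one over most of its length, with medians of -0.33 and -0.28, and only PSMB8 and PSMB9 reach changes near 2. The gap of the medians narrows to 0.05 and 0.02 after quantile normalization.

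The inducible catalytic subunits moved in opposite directions. PSMB8, which takes the place of PSMB5, was dim, with levels in Ctl of lowest -6.10, median -5.31 and highest -4.99, and in NaB of -4.09, -2.93 and -2.04. The 6 NaB arrays were all above the 6 Ctl arrays, but PSMB8 exceeded background clearly in only 3 of the 6 Ctl and 4 of the 6 Doxy cultures, against all 12 with butyrate. The change of PSMB8 was 2.40 ± 0.51 (SD over experiments, n = 6), and it was above 0 in 6 of 6 experiments. With doxycycline its levels were -6.67, -5.11 and -4.11 in Doxy and -4.07, -3.19 and -1.72 in DoxyNaB, so that the groups were separated by a gap of a few hundredths only. The change there was 2.16 ± 0.79. The size of the PSMB8 change depended on the background correction and on the scaling. It was 0.58 in NaB/Ctl and 1.07 in DoxyNaB/Doxy with the normexp correction (offset 50), and 1.09 and 1.34 after quantile normalization. Since a Ctl or Doxy array without clear signal gives no exact level, these values describe the size of the rise only loosely.

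PSMB9, which replaces PSMB6, was measured on all 24 arrays. Its levels in Ctl were -2.59, -1.51 and -1.34 (lowest, median, highest) and in NaB 0.27, 0.46 and 0.74. No NaB array came near a Ctl array, and the change of 2.24 ± 0.46 (4.74-fold, standard error 0.16, n = 6) passed at an adjusted p of 5.2e-10. The levels were -2.02, -1.42 and -1.15 in Doxy and 0.30, 0.40 and 0.94 in DoxyNaB, again without overlap, with a rise of 1.98 ± 0.37 (3.94-fold, adjusted p = 3e-09). The lowest value of the PSMB9 rise under any setting tried was 1.42, in DoxyNaB/Doxy with arrays scaled to the median.

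PSMB10, the inducible counterpart of PSMB7, had the lowest change of the 46 genes in both comparisons, with that of PSMB5 next to it. Its levels were 2.49, 2.69 and 3.18 in Ctl and 0.88, 0.96 and 1.55 in NaB, with no overlap. The change was -1.69 ± 0.11 (to 0.31 of the control signal, n = 6, adjusted p = 6.8e-12), and the gene was lower in 6 of 6 experiments. With doxycycline the levels went from 2.33, 2.58 and 3.15 to 0.70, 0.83 and 0.89, a change of -1.81 ± 0.27 (adjusted p = 2.4e-12). Of the 3 inducible subunits PSMB8 and PSMB9 were thus higher and PSMB10 lower with butyrate in both comparisons.

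All 3 constitutive catalytic subunits fell. PSMB5, the chymotrypsin-like subunit, had levels of 4.11, 4.38 and 4.97 in Ctl and 2.50, 2.80 and 3.33 in NaB, and of 3.97, 4.03 and 4.78 in Doxy and 2.39, 2.82 and 2.94 in DoxyNaB. The groups did not overlap in either comparison, and the changes were -1.60 ± 0.20 (to 0.329 of control, adjusted p = 1.4e-11) and -1.44 ± 0.28 (to 0.368, adjusted p = 5.8e-11). PSMB6, the caspase-like subunit, had levels of 4.85, 4.92 and 5.54 in Ctl and 4.05, 4.37 and 4.82 in NaB, which did not overlap, and fell by 0.66 ± 0.14 (adjusted p = 1.9e-06). PSMB7, the trypsin-like subunit, had levels of 4.05, 4.33 and 4.62 in Ctl and 3.66, 3.93 and 4.34 in NaB, which overlapped, and fell by 0.36 ± 0.16 (adjusted p = 0.00032). In DoxyNaB/Doxy PSMB6 changed by -0.60 (adjusted p = 5.8e-06) and PSMB7 by -0.42 (adjusted p = 7.8e-05).

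**Figure D3:**
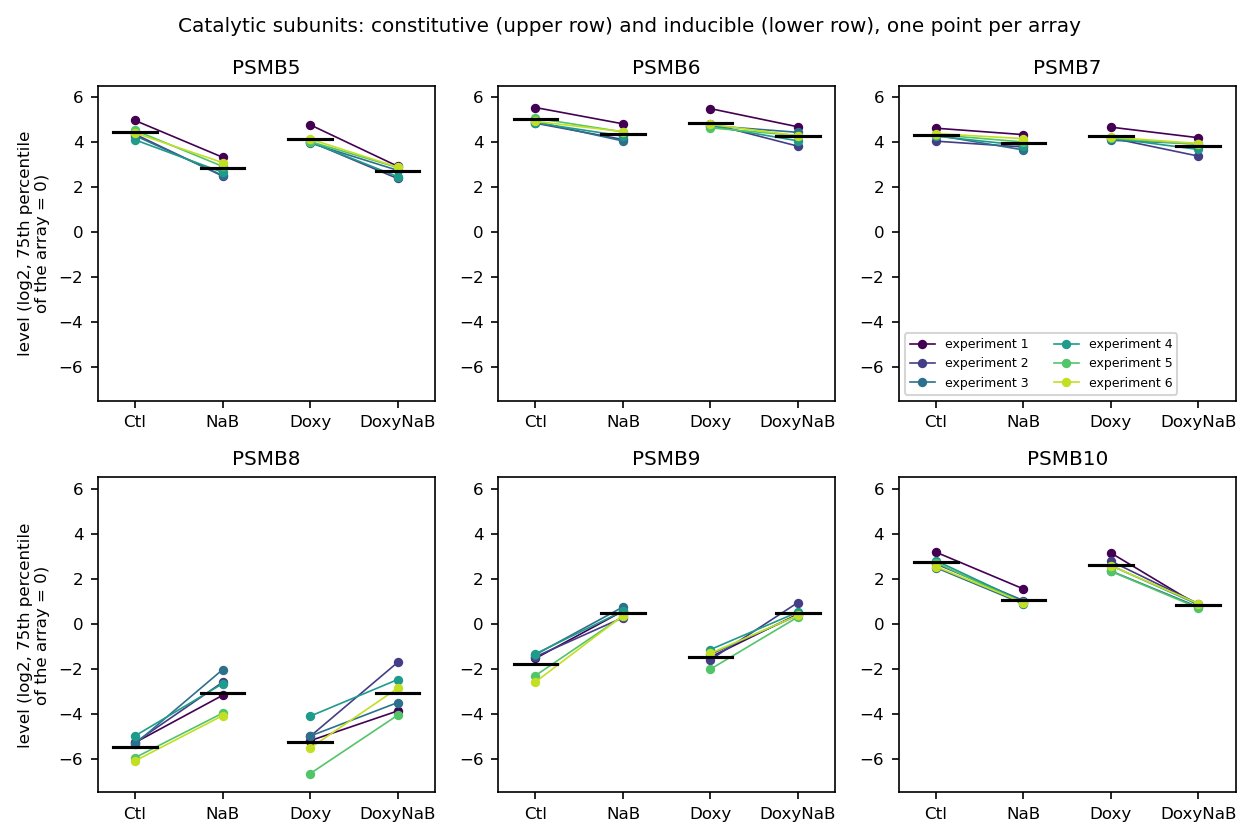
Level (log2, 75th percentile of the array at 0) of the constitutive catalytic subunits PSMB5, PSMB6 and PSMB7 and, under each, the inducible subunit that replaces it, in the 4 treatments. Each point is 1 array, lines join the arrays of an experiment with and without butyrate, and black bars are means of the arrays of a treatment. All lines of PSMB8 and PSMB9 go up and all lines of the other 4 genes go down, and levels of different genes are not comparable.

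Set against the subunit each one replaces, the inducible subunits split again. The change of PSMB8 exceeded that of PSMB5 in the same experiment by 4.00 ± 0.66 in NaB/Ctl (range 3.33 to 5.07, higher in 6 of 6 experiments) and by 3.60 ± 0.78 in DoxyNaB/Doxy. The change of PSMB9 exceeded that of PSMB6 by 2.90 ± 0.39 (range 2.47 to 3.40) and 2.58 ± 0.54, also in 6 of 6 experiments of each comparison. The change of PSMB10 was below that of PSMB7 by -1.33 ± 0.19 (range -1.49 to -0.96) and -1.40 ± 0.26, in all 6 experiments of each. These differences of changes do not depend on the scaling factor of an array, and they are descriptions without a test of their own. That of PSMB8 rests on Ctl and Doxy arrays near background, and was 1.96 in NaB/Ctl and 2.59 in DoxyNaB/Doxy with the normexp correction and 2.50 and 2.61 after quantile normalization.

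**Figure D4:**
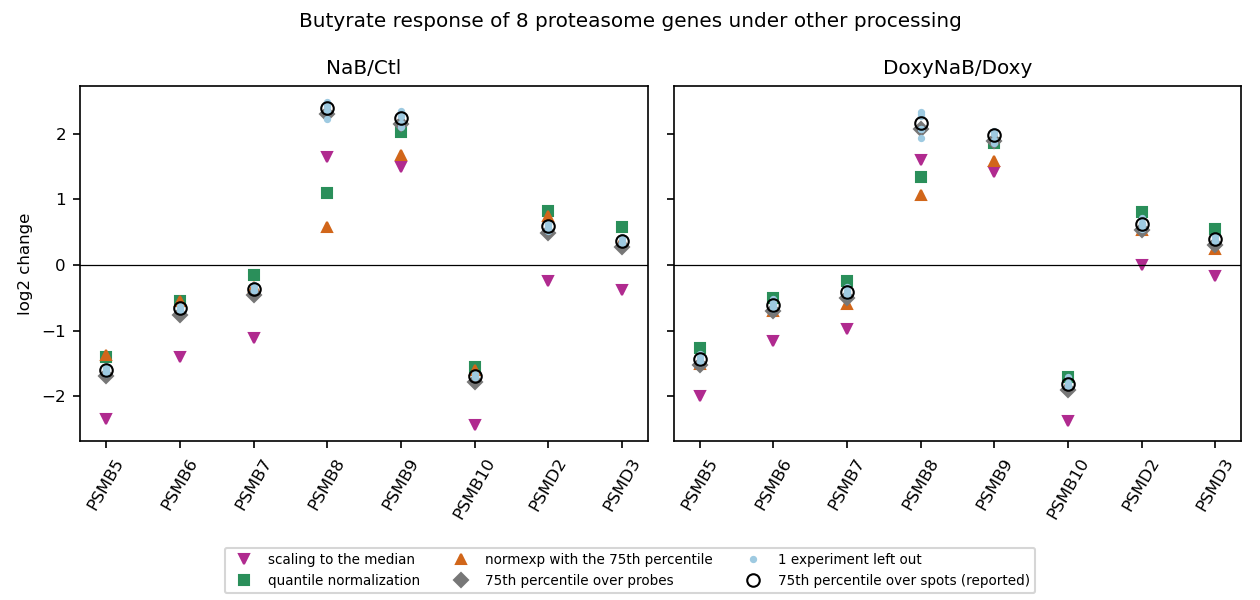
Log2 change of 8 proteasome genes in NaB/Ctl (left) and DoxyNaB/Doxy (right) under 5 ways to correct and scale the arrays and with each experiment left out in turn. Open circles are the reported values. PSMB8 drops to 0.58 and 1.07 with normexp (orange triangles), PSMD2 and PSMD3 turn to -0.24 and -0.38 in NaB/Ctl with arrays scaled to the median (purple triangles), and the other 5 genes keep their direction under each setting drawn.

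The remaining subunits of the core mostly fell or were not called. The counts by role given from here on stand beside 29% of all gene names lower and 40.6% higher in NaB/Ctl. Among the 7 tested alpha subunits, which form the outer rings, 4 fell in each comparison and none rose, with a median of -0.40 in NaB/Ctl. PSMA1 fell most, from levels of 3.91, 4.09 and 4.32 in Ctl to 2.81, 2.99 and 3.37 in NaB without overlap, a change of -1.06 (adjusted p = 5e-08), but its other probe gave 0.00. PSMA4 changed by -0.56 (adjusted p = 2.7e-07), PSMA7 by -0.55 (adjusted p = 4.2e-06) and PSMA3 by -0.40 (adjusted p = 0.00012). PSMA2, PSMA5 and PSMA6 did not pass, with values of -0.16, 0.04 and -0.30. Of the 4 structural beta subunits PSMB2 alone passed, at -0.73 in NaB/Ctl (adjusted p = 2.5e-08) and -0.62 in DoxyNaB/Doxy. Its levels went from 4.52, 4.60 and 4.77 in Ctl to 3.68, 3.86 and 4.09 in NaB without overlap, and 2 of its 3 probes were called, the third at -0.06. PSMB1, PSMB3 and PSMB4 stood at 0.07, -0.20 and -0.17 in NaB/Ctl.

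The ATPases of the regulatory cap, which unfold the substrate and push it into the core, fell in 4 of 6 cases in each comparison, with a median of -0.48 in NaB/Ctl. PSMC3 and PSMC5 both stood at -0.71 in NaB/Ctl (adjusted p = 3.1e-07 and 1.8e-06) and at -0.70 and -0.73 in DoxyNaB/Doxy. The levels of PSMC5 were 3.07, 3.27 and 3.42 in Ctl and 2.22, 2.60 and 2.75 in NaB, without overlap. PSMC6 changed by -0.55 and PSMC1 by -0.41, whereas PSMC2 (-0.04) and PSMC4 (-0.22) did not pass.

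The 11 other subunits of that cap did not share a direction, with a median of -0.04 in NaB/Ctl and 0.03 in DoxyNaB/Doxy. PSMD2, the largest scaffold together with PSMD1 and a docking site for ubiquitin shuttles, had levels of 3.67, 3.75 and 3.91 in Ctl and 4.18, 4.35 and 4.56 in 5 usable NaB arrays, with no overlap. Relative to the 75th percentile it rose by 0.59 (adjusted p = 6.7e-05) in NaB/Ctl, with 0.60 from its other probe, and by 0.63 in DoxyNaB/Doxy (adjusted p = 3.4e-05), and with arrays scaled to the median it was -0.24 in NaB/Ctl. It lay 0.42 above the median of all tested probes as scaled here and 0.34 above it with that scaling. PSMD3, a lid subunit, rose by 0.37 (adjusted p = 0.0012) and 0.39 (adjusted p = 0.00074), with overlapping levels, and turned to -0.38 and -0.17 with arrays scaled to the median. PSMD3 lay 0.20 above the median of all probes in NaB/Ctl under both scalings, which shift the probes of an array nearly alike. PSMD6, another lid subunit, stood at 0.20 in NaB/Ctl (adjusted p = 0.013), where it passed without experiment 2 (0.22, adjusted p = 0.0082), and passed in DoxyNaB/Doxy at 0.26 (adjusted p = 0.0028), a call that ended without experiment 1, 3, 4 or 5 (0.25, 0.21, 0.25 and 0.22).

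The lid and enzyme genes PSMD7, PSMD8, PSMD11 and PSMD14 of the same cap fell in both comparisons. PSMD11, which helps to hold the lid together, went from levels of 2.23, 2.30 and 2.35 in Ctl to 1.26, 1.46 and 1.74 in NaB, a change of -0.82 (adjusted p = 9e-09), and stood at -0.99 with doxycycline. PSMD7 changed by -0.71 (adjusted p = 1.2e-08), PSMD8 by -0.53 (adjusted p = 2.8e-06) and PSMD14, the deubiquitinating enzyme of the cap that pairs with PSMD7, by -0.46 (adjusted p = 2e-05). The ubiquitin receptor PSMD4 (-0.22, called without experiment 5 at -0.29), the scaffold PSMD1 (-0.04) and the lid subunits PSMD12 (-0.02) and PSMD13 (0.16) did not pass in NaB/Ctl.

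The assembly chaperones of the core fell. All 4 passed as lower in both comparisons, with a median of -0.85 in NaB/Ctl. PSMG1, which pairs with PSMG2 to build the alpha ring, had levels of 2.25, 2.68 and 2.78 in 5 usable Ctl arrays and 1.14, 1.41 and 1.64 in NaB, and of 2.40, 2.80 and 2.87 in Doxy and 0.65, 1.40 and 1.63 in DoxyNaB. The groups did not overlap, and the changes were -1.15 (adjusted p = 7.1e-07) and -1.41. PSMG2 changed by -0.43 in both comparisons (adjusted p = 0.00017 in NaB/Ctl), PSMG3 by -0.82 (adjusted p = 1.1e-08) and -0.80, and PSMG4, the partner of PSMG3, by -0.88 (adjusted p = 2.8e-06) and -0.99, with 2 of the 3 PSMG4 probes not tested.

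Of the 3 chaperones that assemble the ATPase ring PSMD5 changed by -0.72 in NaB/Ctl (adjusted p = 1.5e-07) and -0.49 in DoxyNaB/Doxy, and PSMD10, known as gankyrin, stood at -0.16 and did not pass. PSMD9 passed narrowly in NaB/Ctl at -0.24 (adjusted p = 0.0056), and its other, dimmer probe went the other way at 0.98 (adjusted p = 0.0088). The PSMD9 call ended without experiment 3, 4, 5 or 6 (-0.23, -0.24, -0.23 and -0.25), and the mean of both probes was 0.37.

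The activator caps differed among themselves. PSME1 and PSME2, the partner subunits of the interferon-inducible cap that works with the immunoproteasome, did not pass, at 0.05 and -0.18 in NaB/Ctl and 0.06 and -0.16 in DoxyNaB/Doxy. PSME3, the related nuclear cap, fell by 0.75 (adjusted p = 1.3e-06) and 0.64, with levels of 2.14, 2.41 and 2.80 in Ctl and 1.46, 1.65 and 1.89 in NaB that did not overlap. PSME4, a large cap linked to histone turnover, had levels of 0.53, 0.62 and 0.68 in Ctl and 0.90, 1.07 and 1.16 in NaB, without overlap, at a change of 0.43 that did not pass (adjusted p = 0.032) but did without experiment 5 (0.39, adjusted p = 0.0042). It passed in DoxyNaB/Doxy at 0.73 ± 0.57 (adjusted p = 0.00097), where the array of experiment 5 stood at 2.39, and the value without that experiment was 0.52, still called. PSMF1, an inhibitor of the core, stood at -0.03 in both comparisons, and its 4 probes ranged from -0.66 to 0.14 with 1 of them called.

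The numbers of genes whose groups did not overlap at all were 13 lower and 4 higher in NaB/Ctl and 15 lower and 3 higher in DoxyNaB/Doxy, leaving 29 and 28 genes with overlapping levels. Over all tested gene names the arrays did not overlap for 20% as lower and 25.4% as higher in NaB/Ctl and for 20.9% and 22.5% in DoxyNaB/Doxy. The 4 higher in NaB/Ctl were PSMB8, PSMB9, PSMD2 and PSME4, with the Ctl arrays of PSMB8 partly without clear signal.

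No proteasome gene responded to doxycycline beyond the threshold. Doxy/Ctl says little about DN-Tcf4, since the study found little of that protein without butyrate. DoxyNaB and Doxy differed in DN-Tcf4 as well as in butyrate. In Doxy/Ctl 0 of 46 genes were called by limma, beside 0.554% of all gene names, and 2 had an unadjusted p under 0.05 (PSMB5 at -0.28 and PSMD8 at -0.17). Changes ranged from -0.28 to 0.28 with a median of -0.08, beside 0.02 over all gene names. Of the 46 genes 41 were below 0, where between 43% and 44% of all tested probes were. In DoxyNaB/NaB 0 genes were called, beside 2.72%, and PSMB10 (-0.23) and PSMD4 (0.18) had an unadjusted p under 0.05. For the difference between NaB/Ctl and DoxyNaB/Doxy 0 genes were called, beside 1.36%, and PSMD4 alone had an unadjusted p under 0.05 (-0.29). The differences ranged from -0.30 to 0.27, and the lowest adjusted p of the 3 comparisons was 0.14. The methods' paired t-test with Benjamini-Hochberg adjustment and the other settings also called 0 genes in these comparisons.

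Partners of the proteasome with other names had a mixed response. Of 12 such genes 5 rose and 2 fell in NaB/Ctl, and 2 rose and 2 fell in DoxyNaB/Doxy. Of all gene names 40.6% rose and 29% fell in NaB/Ctl, and 38.1% and 30.3% in DoxyNaB/Doxy. ECPAS, counted among the falls in NaB/Ctl, entered the test only through its Doxy arrays. POMP, the maturation factor of the core, rose by 0.80 in NaB/Ctl (adjusted p = 0.00012) and stood at 0.39 in DoxyNaB/Doxy, where it did not pass (adjusted p = 0.029). USP14, a deubiquitinase bound to the cap, rose by 0.42 relative to the 75th percentile (adjusted p = 0.0022) and turned to -0.33 with arrays scaled to the median. ECPAS, an adaptor that clamps core and cap, was well above background on 4 of 6 Ctl and 6 of 6 Doxy arrays and on no NaB or DoxyNaB array, so that its fall is a bound of at least 1.07-fold in NaB/Ctl and at least 1.20-fold in DoxyNaB/Doxy.

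PAAF1, an inhibitor of the joining of core and cap, was the gene of these lists whose butyrate response differed with doxycycline. Its levels were 0.21, 0.31 and 0.38 in Ctl, -0.53, -0.41 and -0.30 in NaB, 0.48, 0.58 and 0.62 in Doxy and -1.46, -1.30 and -1.11 in DoxyNaB. The DoxyNaB arrays were below all others. It fell by 0.71 in NaB/Ctl (adjusted p = 7.4e-09) and by 1.85 in DoxyNaB/Doxy (adjusted p = 1.8e-14), and the difference of the changes was 1.15 (standard error 0.09, above 0 in 6 of 6 experiments).

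The ubiquitin genes showed small changes. Of 6 ubiquitin genes and activating enzymes UBB, at 0.37, and the E1 enzyme UBA1, at 0.34, rose in NaB/Ctl, and both turned below 0 with arrays scaled to the median (-0.38 and -0.41). Of 8 tested shuttle and extraction factors, which carry ubiquitinated proteins to the proteasome, 5 fell and 2 rose in each comparison, among them RAD23B (-1.13) and UBQLN4 (-1.35) in NaB/Ctl. Both lists stand beside 29% of all gene names lower and 40.6% higher in NaB/Ctl, and 30.3% and 38.1% in DoxyNaB/Doxy. UFD1, a cofactor of the segregase VCP, rose by 0.63 and stood at -0.12 with arrays scaled to the median. NFE2L1, the factor that raises proteasome genes when the proteasome is inhibited, stood at -0.23 and did not pass (adjusted p = 0.038), and neither did NFE2L3 or NGLY1, while NFE2L2, DDI1 and DDI2 were not tested.

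The genes that load peptides on MHC class I changed in both directions. TAP1, a subunit of the peptide transporter, had levels of 0.76, 1.20 and 1.69 in Ctl and 0.28, 0.41 and 0.61 in NaB. The groups did not overlap, and TAP1 fell by 0.76 (adjusted p = 5.1e-06) in NaB/Ctl and by 0.84 in DoxyNaB/Doxy. TAP2, the other transporter subunit, changed by -1.72 (adjusted p = 2.8e-08) and -1.69, and TAPBP, which bridges transporter and MHC, by -2.11 (adjusted p = 6.5e-12) and -1.76. ERAP2, a trimming peptidase, was lower by -1.51 ± 1.30 in NaB/Ctl (adjusted p = 0.0025), with 3 of 6 NaB arrays well above background, and lost the call without experiment 6 (-1.24). Of the 10 genes 3 rose and 4 fell in NaB/Ctl and 4 rose and 3 fell in DoxyNaB/Doxy. That is 70% called in each, near the 69.6% and 68.4% of all gene names called. The rises were small, the highest in NaB/Ctl being HLA-B at 0.44 (adjusted p = 0.0056).

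PSMB8, PSMB9, TAP1 and TAP2 lie side by side on chromosome 6. From the start of TAP2 to that of PSMB9 the RefSeq annotation of GRCh38.p14 spans 15.5 kb. PSMB9 and TAP1 are read from opposite strands, with start sites 488 bases apart. In these arrays PSMB8 and PSMB9 rose and TAP1 and TAP2 fell in both comparisons.

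The promoters of PSMB9, which rose, and PSMB10, which fell, are shown because these 2 inducible subunits responded in opposite directions. They are the 250 bases upstream of the RefSeq start in GRCh38.p14, written along the gene. Capitals mark every match, on either strand, to GAAA followed after 2 bases by GAAA (the core of an interferon response element, here called the GAAA repeat), TGACNNNGC (an antioxidant response element), GGGCGG (a GC box) and CCAAT.
PSMB9, chr6:32853942-32854191, plus strand: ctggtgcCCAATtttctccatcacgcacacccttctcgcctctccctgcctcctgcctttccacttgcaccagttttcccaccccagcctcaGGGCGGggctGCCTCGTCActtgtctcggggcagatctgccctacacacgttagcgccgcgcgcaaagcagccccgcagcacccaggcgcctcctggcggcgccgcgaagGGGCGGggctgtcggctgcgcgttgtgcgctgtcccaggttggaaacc
PSMB10, chr16:67936851-67937100, minus strand: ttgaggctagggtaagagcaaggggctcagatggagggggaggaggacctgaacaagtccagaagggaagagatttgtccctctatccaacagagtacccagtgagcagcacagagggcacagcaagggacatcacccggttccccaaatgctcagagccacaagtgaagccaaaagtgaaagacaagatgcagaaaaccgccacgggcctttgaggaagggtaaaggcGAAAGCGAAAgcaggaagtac
PSMB9 held matches to TGACNNNGC, GGGCGG and CCAAT and none to the GAAA repeat in this window, and PSMB10 held the GAAA repeat alone. The window does not reach the GAAA repeats of TAP1. They lie between the start sites of TAP1 and PSMB9, upstream of both genes. PSMB9 therefore has GAAA repeats further upstream, beyond the 250 bases shown. Its difference from PSMB10 in this motif holds only within that window.

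Matches to the GAAA repeat were found next to genes of both directions. They are shown as windows of 30 bases along the gene in GRCh38.p14, with the match in capitals. PSMB8 rose and the other 4 genes fell.
PSMB8, chr6:32844032-32844061, minus strand: gatctgtggcTTTCGCTTTCacttcctcct
PSMB10, chr16:67936852-67936881, minus strand: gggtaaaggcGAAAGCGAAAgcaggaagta
TAP1, chr6:32853816-32853845, minus strand: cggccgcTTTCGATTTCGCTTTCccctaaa
TAP2, chr6:32838778-32838807, minus strand: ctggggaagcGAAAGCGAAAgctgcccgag
TAPBP, chr6:33314076-33314105, minus strand: tttggagGAAAGTGAAAGTGAAAggaggaa
The match of PSMB8 spans its second RefSeq start, and TAP1 and TAPBP hold overlapping matches. Over promoter windows of 300 bases, 250 before and 50 after a start, 42 of the 48 subunit genes had an entry and 7 of them (16.7%) held the GAAA repeat, namely PSMA4, PSMB4, PSMB8, PSMB10, PSME1, PSME2 and PSMG4, beside 4.38% of all 27305 gene symbols. The other shares were 35.7% beside 16.1% for TGACNNNGC, 69.0% beside 48.3% for GGGCGG and 47.6% beside 39.7% for CCAAT. The sequence TTCNNNGAA was held by 8 of the 42 genes, PSMB8 among them, beside 9.38% of all gene symbols. A match is a run of letters and not a measured site. Of the 7 genes with the GAAA repeat PSMB8 rose, PSMA4, PSMB10 and PSMG4 fell and PSMB4, PSME1 and PSME2 were not called in NaB/Ctl.

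The interferon gamma pathway, the known inducer of PSMB8, PSMB9 and PSMB10, had members that changed in opposite directions. The receptor subunit IFNGR1 rose by 1.49 in NaB/Ctl and the kinase JAK1 by 1.40, while the other receptor subunit, IFNGR2, had levels of 0.90, 1.06 and 1.28 in 5 usable Ctl arrays and -1.60, -1.34 and -1.23 in NaB. Its arrays did not overlap, and it fell by 2.42 (adjusted p = 1.2e-13). IRF1, a transcription factor that drives the inducible subunits, fell by 0.30 in NaB/Ctl (adjusted p = 0.00021) and stood at -0.15 in DoxyNaB/Doxy, where it did not pass (adjusted p = 0.032). Of 8 tested regulators 4 rose and 2 fell in NaB/Ctl, beside 40.6% and 29% of all gene names, and NLRC5, CIITA and IRF8 were not tested.

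**Figure D5:**
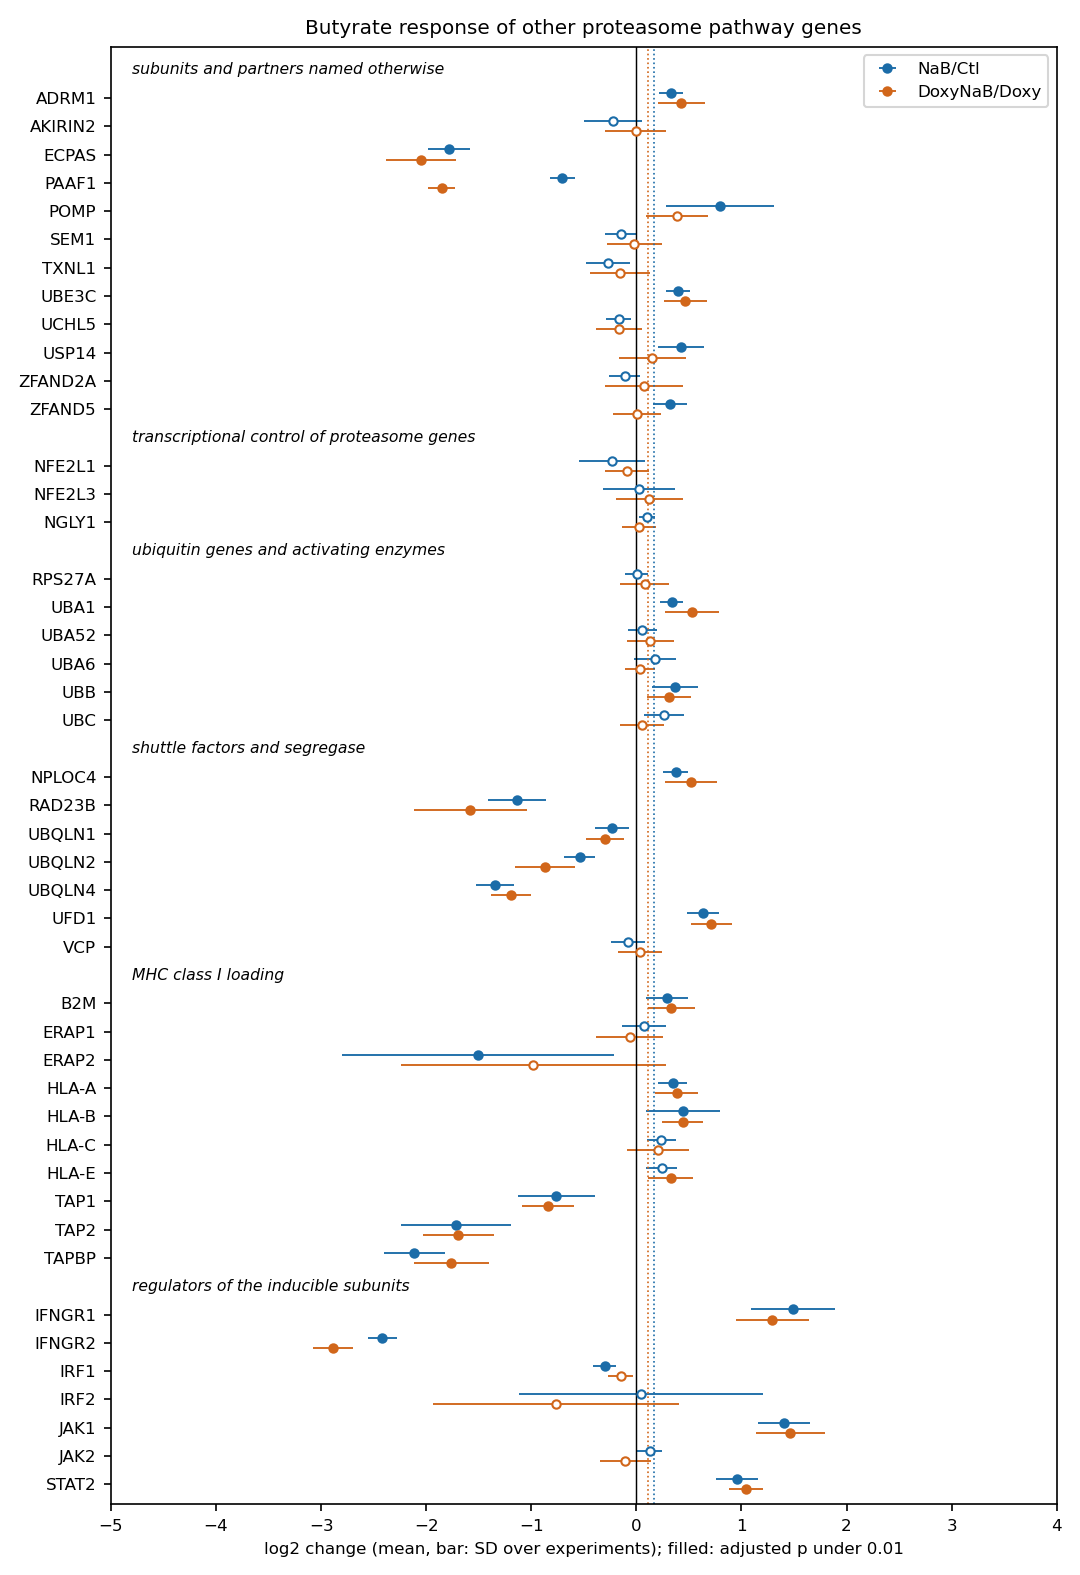
Log2 change in NaB/Ctl (blue) and DoxyNaB/Doxy (orange) of tested genes of 6 lists around the proteasome. Points are means and bars SDs over experiments, filled points passed at an adjusted p under 0.01 and dotted lines mark the median of all gene names (0.17 and 0.11). JAK1 and IFNGR1 stand near or above 1.3, IFNGR2, TAPBP and TAP2 below -1.5, and the point of ECPAS is a fitted value of a probe not well above background with butyrate, whose fall is only bounded (at least 1.07-fold and 1.20-fold). UFD1, USP14, UBB and UBA1 turn below 0 in NaB/Ctl with arrays scaled to the median.

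Markers of other cell types were read beside the inducible subunits, since leukocytes carry the immunoproteasome. Of 6 leukocyte markers 5 had a probe and 2 were tested, and both rose in NaB/Ctl, CD14 by 1.35, where 40.6% of all gene names rose. The summed signal of the 5, in units of the 75th percentile, ranged from 0.157 to 0.422 in Ctl, 0.612 to 1.05 in NaB, 0.146 to 0.391 in Doxy and 0.531 to 1.22 in DoxyNaB. The pan-leukocyte marker PTPRC was well above background on 4, 3, 5 and 3 of 6 arrays of these treatments and the T cell marker CD3E on 3, 3, 3 and 2. Of 6 markers of fibroblasts and endothelium COL1A1 rose, by 1.09, CDH5 did not pass and 4 were not tested. All cultures came from 1 clone of HCT-116, and the design added no other cell type. What raised these marker signals was not tested.

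PSMC3IP, the gene with the prefix that is not a subunit, fell by 1.49 in NaB/Ctl (adjusted p = 6.4e-10) and by 1.27 in DoxyNaB/Doxy.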

How the data were processed

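RNA from 24 cultures (4 treatments, 6 experiments) was measured on 1-colour Agilent arrays. The deposited files are scanner output of Feature Extraction 9.5.3.1 with probe positions in NCBI36, per the file headers. Their intensity values, the processed signals used here, had been background-corrected by that software, and the authors then analysed them in GeneSpring, output not used here.

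Outlier spots (359 to 795 an array) were dropped, log2 signals were centred on the array's 75th percentile over noncontrol spots, and spots of 1 probe were averaged. The tested probes were fitted with limma 3.58.1 (R 4.3.3), treatment plus experiment, over all arrays, with missing spots left out. Depth has no counterpart on arrays, and precision rests on the 6 experiments. Samples were grouped by their labels, which do not state separate passages, whereas the study's methods call the experiments biological replicates. Experiment numbers were taken to pair the samples, and arrays of the same number share a slide except in experiment 1. Of 36 same-numbered pairs 35 correlated over 0.1 (lowest -0.22, median 0.60). Pairs of different numbers were not set beside them, so these correlations do not test the pairing.

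On simulated data of 18331 probes the fit called 42 of 67 probes changed 1.5-fold, 52 of 67 changed 2-fold and 63 of 66 changed 4-fold, with 1 false call. Few probes changed there, against 69.6% of gene names called in NaB/Ctl, and no shift of whole arrays was simulated. These rates therefore do not carry over to the tests on the real arrays. Members, gene lists and tests were chosen with earlier results of these data known. Named with values were the catalytic, cap and chaperone genes, in each other list up to 3 rises and falls and the genes not called, and up to 4 genes of each pathway list besides TAP1, IRF1, NLRC5, NFE2L1 and POMP. A few genes of these lists are not reported here. Promoters came from RefSeq (GRCh38.p14). Alternatives varied background correction, scaling, filter, block, test, threshold and experiments. The scaling over probes was added after seeing the data.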

Additional observations from a re-analysis of the deposited data

Results flagged for a closer look

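In 27 of 188 groups of arrays (47 genes in 4 treatments) the highest or lowest array stood far from the other arrays of its treatment, by Dixon's criterion, where chance gives about 1 in 20. In 24 of the 27 that array belonged to experiment 1, the experiment run on 2 slides, and its part in the levels was not tested.
Above the other Ctl arrays the experiment 1 array stood at 4.70 for PSMA7, 5.93 for PSMB1, 4.77 for PSMB2, 5.54 for PSMB6, 3.80 for PSMC4, 5.41 for PSMD8, 4.39 for PSME2 and 2.99 for PSMG3, and below them at 2.25 for PSMG1. Above the other NaB arrays it stood at 4.43 for PSMA2, 1.55 for PSMB10, 4.92 for PSMD8 and 4.25 for PSME2. Above the other Doxy arrays it stood at 4.97 for PSMA4, 4.54 for PSMA7, 4.78 for PSMB5, 5.49 for PSMB6, 4.67 for PSMB7, 3.92 for PSMC3, 5.17 for PSMD8, 3.49 for PSMD9, 1.78 for PSME1, 2.20 for PSMG2 and 3.01 for PSMG3.
The DoxyNaB array of experiment 2, which had the highest negative controls, stood above the others of its treatment for PSMB9 (0.94) and below them for PSMD1 (3.17) and PSMD2 (3.94).
The butyrate response of PAAF1 differed between the media without and with doxycycline by 1.15, as tested by the interaction of the limma fit.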

How the results depend on the processing

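The counts of proteasome genes called, taken with PSMB8 among them, moved with the scaling. Of the settings below, shares of all gene names were counted only for median scaling in NaB/Ctl (46.1% lower, 13% higher) and the 2-fold minimum. The other counts therefore cannot tell a move of the proteasome genes from one of the whole array. The 4 called higher in NaB/Ctl became 8 after quantile normalization and 2 with arrays scaled to the median, where the 24 called lower became 38, and normexp left 16 lower. In DoxyNaB/Doxy the 6 called higher became 10 after quantile normalization, 2 with median scaling, 3 with normexp and 3 with the methods' paired t-test. With experiments 2 to 4 alone 2 and 3 genes were called higher in the 2 comparisons, and with experiments 5 and 6 alone 2 and 3 were called higher and 14 and 12 lower. A 2-fold minimum left 2 higher and 4 lower in NaB/Ctl and 2 higher and 3 lower in DoxyNaB/Doxy. Leaving out 1 experiment gave 4 to 5 higher and 23 to 24 lower in NaB/Ctl and 5 to 6 higher and 23 lower in DoxyNaB/Doxy. Without the replicate block 3 were higher and 20 lower in NaB/Ctl and 4 and 19 in DoxyNaB/Doxy. The change of PSMB8 minus that of PSMB5 was 2.50 and 2.61 after quantile normalization, tried for it after seeing the data, and 1.96 and 2.59 with normexp, which also lowered PSMB9 minus PSMB6 to 2.21 in NaB/Ctl.
Median scaling moved the median of all tested probes by -0.75 in NaB/Ctl and -0.56 in DoxyNaB/Doxy, and 8 proteasome genes in NaB/Ctl and 7 in DoxyNaB/Doxy went from above to below 0. Among values called under either scaling, those that changed sign in NaB/Ctl were PSMA5 (-0.71), PSMD2 (-0.24), PSMD3 (-0.38), PSME1 (-0.70), UFD1 (-0.12), USP14 (-0.33), UBB (-0.38) and UBA1 (-0.41), and in DoxyNaB/Doxy PSMD3 (-0.17), PSMD6 (-0.30), UBB (-0.25) and UBA1 (-0.032). Quantile normalization turned PSMC2 and PSMD1 to 0.17 in NaB/Ctl, and the mean over probes turned PSMD9 to 0.37 and 0.61. Over single proteasome genes and all 5 comparisons experiments 5 and 6 alone ended 26 calls, experiments 2 to 4 alone and normexp 12 each, the fit without the block 11 and the methods' t-test 10, with the direction kept. Leaving out 1 experiment also added the calls of PSMD6, PSMD4 and PSME4 in NaB/Ctl. The cause of these shifts was not tested. Dim probes such as that of PSMB8 are limited by their signal over background.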
